A study of Mus musculus with 9 samples.

Results

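The antioxidant and NRF2 genes of the mouse ovary were followed as a list of 37 genes, all of which were matched by symbol to 1 row each among the 22544 entries of an FPKM table (fragments scaled for transcript length and library size). The list holds enzymes that remove superoxide and peroxide, the thioredoxin and glutathione systems, and the sensor NRF2 with its classical targets. Polyadenylated RNA of ovary was sequenced in 9 libraries, 3 in each of 3 groups. The NC libraries carry neither treatment in their labels. The CTX libraries came from mice given CTX, which commonly stands for cyclophosphamide, a DNA-alkylating drug toxic to growing follicles. The HBOT libraries came, per the series' design text, from CTX combined with hyperbaric oxygen (HBOT), so both the CTX and the HBOT group carry the drug, and there is no group with oxygen alone. The sources used here give no strain, age, dose or timing. Nothing in the labels ties replicates to separate animals, so a p-value speaks only of the spread among these libraries, which may be technical.

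Oxygen metabolism leaks superoxide, which superoxide dismutases turn into hydrogen peroxide, and catalase, glutathione peroxidases and peroxiredoxins then reduce the peroxide to water. Glutathione and thioredoxin supply the electrons for the peroxidases and peroxiredoxins, and their reductases recover them from NADPH. NRF2, encoded by Nfe2l2, is a transcription factor that KEAP1 marks for destruction until oxidants or electrophiles modify KEAP1. It then pairs with small MAF proteins at antioxidant response elements of genes such as Nqo1, Hmox1, Gclm and Srxn1. In the ovary, steroid synthesis in theca, granulosa and luteal mitochondria is a source of oxidants, and cyclophosphamide forms metabolites that are conjugated to glutathione.

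Summed FPKM ranged from 394046 to 420058 per library, and read depth is unknown because FPKM keeps no read counts. The ovary label held in every library: the egg coat gene Zp3 lay between 23.2 and 69.9 FPKM, the granulosa gene Inha between 996 and 1771, and the steroid side-chain cleavage gene Cyp11a1 between 1468 and 4275. HBOT replicate 2 was unlike the others. Its highest rank correlation with another library, across genes, was 0.907, against at least 0.977 for each of the others. It carried a summed 1007 FPKM of 10 genes of the ovulatory response, such as Ereg and Ptgs2, against 13.8 to 40.9 in the other libraries. Fold changes that rest on it are given with and without it. CTX replicate 1 held the lowest summed level of 7 theca and interstitial genes, 4519 FPKM, against 5268 to 9281 elsewhere. The genes of this list did not move together there. Cyp11a1 was at its lowest, 1468 FPKM, but Nr5a1 was at its highest, 195.8 FPKM. Cyp17a1 stood at 511.4 FPKM in that library, against 29.0 to 119 in NC. Ovarian tissue mixes many cell types, so fewer cells of a type and less RNA per cell cannot be told apart.

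Every member was expressed. The lowest value of any member in any library was 1.88 FPKM, for the quinone reductase gene Nqo1 in HBOT replicate 2, so all 37 passed the filter on low values (at least 1 FPKM in at least 3 libraries). The mean over the 9 libraries was above 100 FPKM for 8 members, between 10 and 100 for 26 and under 10 for 3. Together the 37 genes summed to between 2315 FPKM (CTX replicate 1) and 3155 FPKM (HBOT replicate 3), or 0.565% to 0.751% of a library's FPKM. For 26 of the 37 the highest library was under 2 times the lowest. Over the 8 libraries without HBOT replicate 2 this held for 30.

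**Figure D1:**
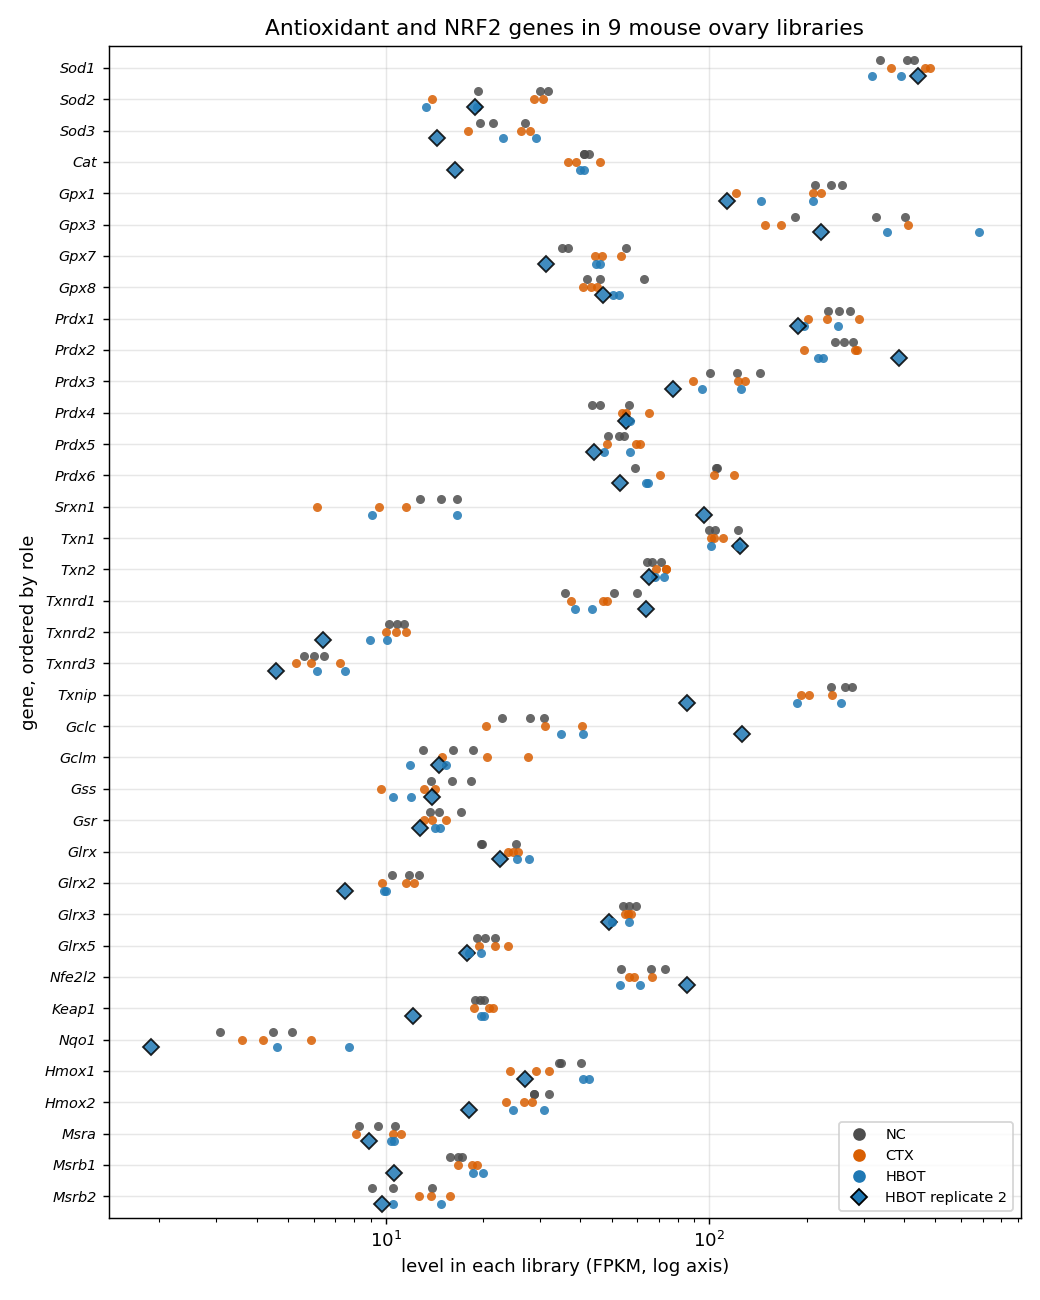
Level of each of the 37 genes in each library in FPKM on a log axis, with NC in grey, CTX in orange and HBOT in blue, and HBOT replicate 2 as an outlined diamond. The groups lie over one another for most genes, and HBOT replicate 2 lies to the right for Srxn1 (96.3 FPKM) and Gclc (126 FPKM) and to the left for Cat (16.4 FPKM), Txnip (85.3 FPKM) and Nqo1 (1.88 FPKM).

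Sod1, which encodes the cytosolic copper and zinc superoxide dismutase, was the most abundant member, with a mean of 404 FPKM. Its level was 428, 409 and 338 FPKM in NC, 364, 464 and 483 in CTX and 318, 441 and 391 in HBOT, and the 3 groups overlapped. The mitochondrial manganese enzyme gene Sod2 was far lower on this per-length scale, with a mean of 22.9 FPKM. It stood at 31.8, 30.0 and 19.3 FPKM in NC, 13.9, 28.8 and 30.6 in CTX and 19.1, 18.9 and 13.4 in HBOT. The highest HBOT value of Sod2 lay just below the lowest NC value, and CTX spanned both. The extracellular enzyme gene Sod3 had a mean of 23.0 FPKM and ranged from 14.4 to 29.2, with the extremes in HBOT replicates 2 and 3.

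Among genes that remove peroxide, Gpx3, which encodes the secreted glutathione peroxidase, had the highest mean, 322 FPKM, followed by Prdx2 (264), Prdx1 (235) and Gpx1 (192). Gpx3 also varied widely within groups: 328, 184 and 403 FPKM in NC, 149, 167 and 410.2 in CTX and 356, 221 and 682.5 in HBOT. These neighbours in the order overlapped in their ranges. The mitochondrial peroxiredoxin gene Prdx3 had a mean of 112 FPKM, and Prdx6, whose product also has phospholipase activity, 82.8 FPKM. The endoplasmic reticulum enzymes were encoded at similar levels, with means of 54.2 FPKM for Prdx4, 47.7 for Gpx8 and 43.8 for Gpx7, and Prdx5, found in several compartments, stood at 52.5. Catalase (Cat), the peroxisomal enzyme, was between 36.7 and 46.1 FPKM in 8 libraries and at 16.4 FPKM in HBOT replicate 2. RefSeq names pseudogenes of Prdx1, Prdx2 and Prdx6 and a near copy, Prdx6b, so how reads were divided among them is uncertain.

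Txn2, the mitochondrial thioredoxin gene, was the steadiest of the 37, ranging from 64.2 to 73.7 FPKM over the 9 libraries, a spread of 1.15 times. Txn1, the cytosolic thioredoxin gene, ranged from 99.7 to 124 FPKM, 1.25 times. Of the reductases that recharge them, Txnrd1 had a mean of 47.2 FPKM, the mitochondrial Txnrd2 10.04 and Txnrd3 6.07. Txnip, an inhibitor of thioredoxin that glucose induces in many cells, ranged from 187 to 276 FPKM in 8 libraries and stood at 85.3 in HBOT replicate 2. Glutaredoxins, which reduce glutathione-bound proteins or carry iron-sulfur clusters, had means of 54.9 FPKM (Glrx3), 23.9 (Glrx), 20.2 (Glrx5) and 10.7 (Glrx2). The methionine sulfoxide reductase genes, which repair oxidised methionine, had means of 17.0 FPKM (Msrb1), 12.3 (Msrb2) and 9.80 (Msra).

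Glutathione is made by the ligase of a catalytic and a modifier subunit, Gclc and Gclm, and by the synthetase Gss, and is recycled by the reductase Gsr. Outside HBOT replicate 2 their levels were 20.4 to 40.7 FPKM for Gclc, 11.9 to 27.7 for Gclm, 9.66 to 18.4 for Gss and 13.2 to 17.1 for Gsr. In the sensor pair the highest library was 1.61 times the lowest for Nfe2l2 and 1.77 times for Keap1. Nfe2l2 stood at 72.9, 65.9 and 53.4 FPKM in NC, 58.6, 66.5 and 56.6 in CTX and 53.2, 85.4 and 61.3 in HBOT, with HBOT replicate 2 highest. Keap1 stood at 20.2, 18.9 and 19.6 FPKM in NC, 20.9, 21.6 and 18.8 in CTX and 19.7, 12.2 and 20.1 in HBOT, with the same library lowest. Of the heme oxygenases, which break heme into biliverdin, iron and carbon monoxide, the constitutive Hmox2 had a mean of 26.9 FPKM and the inducible Hmox1 33.9. Nqo1, a standard readout of NRF2 activity, was among the lowest members, with a mean of 4.51 FPKM.

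CTX was set against NC for the effect of the drug. None of the 37 genes passed an adjusted p of 0.05 by limma, where 0% of the 13338 tested genes did, and the smallest adjusted p of a member was 0.666. Differences were small: 36 of 37 lay within 0.5 on the log2(FPKM + 1) scale, and the median was -0.01, against 0.05 over all tested genes. By limma 0 members had an unadjusted p under 0.05, against 7.98% of all tested genes (5.24% higher and 2.74% lower). Leaving HBOT replicate 2 out gave 2 members, Hmox1 and Srxn1 (5.41%), against 15.8% of all tested genes, and 0 members passed an adjusted p of 0.05, against 0.06%. In the fit of all libraries 20 of 37 were lower (54.1%, against 40.5% of all). Groups were free of overlap for 3 members, all of them lower in CTX, a share of 8.11%, where 21% of all tested genes did not overlap and 7.8% were lower without overlap.

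Those 3 members were Hmox1, Hmox2 and Srxn1. Hmox1 stood at 34.2, 35.0 and 40.2 FPKM in NC and 24.3, 31.9 and 29.2 in CTX. Each CTX library was below each NC library, by a small margin. Its log2 fold change was -0.35 (SE 0.18, adjusted p = 0.697 by limma), and without HBOT replicate 2, whose spread enters the error of every comparison, the SE was 0.11 and the adjusted p 0.217. Macrophages, which break down the heme of old red cells, are a known site of Hmox1. The 12 macrophage markers, 0 of them at 0 in every library, summed to 104 to 116 FPKM in NC and 131 to 176 in CTX, with 8 of 12 higher in CTX on average, and the 7 erythroid markers to 62.9 to 207 in NC and 387 to 817 in CTX, with 7 of 7 higher, and their part in the Hmox1 values was not tested. Other marker lists had lower sums in CTX on average: the 8 corpus luteum markers summed to 3261 to 4216 FPKM in NC and 802 to 1618 in CTX, with 1 of 8 higher in CTX, and the 6 stroma markers to 632 to 966 and 505 to 669, with 0 of 6 higher. Their part in the values of Hmox1, Hmox2 and Srxn1 was not tested.

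Srxn1 encodes sulfiredoxin, which repairs overoxidised peroxiredoxins. It stood at 12.8, 14.8 and 16.6 FPKM in NC and 6.15, 9.56 and 11.6 in CTX, without overlap (log2 fold change -0.67, SE 0.70, adjusted p = 0.898 by limma; SE 0.26 and adjusted p = 0.276 without HBOT replicate 2). Hmox2 stood at 28.7, 28.8 and 32.0 FPKM in NC and 28.4, 23.6 and 26.8 in CTX, so the closest libraries nearly touched.

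None of the remaining core genes passed the test between CTX and NC. The log2 fold changes were -0.07 (SE 0.18) for Nfe2l2, 0.05 (0.18) for Keap1, 0.08 (0.37) for Nqo1, 0.12 (0.45) for Gclc, 0.35 (0.22) for Gclm and -0.12 (0.23) for Txnrd1. Gclm was highest in CTX replicate 1, at 27.7 FPKM, with the other CTX libraries at 15.0 and 20.5 and NC at 18.6, 13.1 and 16.2. For the dismutases and catalase they were 0.15 (0.16) for Sod1, -0.19 (0.31) for Sod2, 0.07 (0.26) for Sod3 and -0.04 (0.30) for Cat. Adjusted p-values of these 10 genes by limma lay between 0.785 and 0.996. Of them Nfe2l2, Keap1, Nqo1, Gclc, Txnrd1, Sod2, Sod3 and Cat changed sign under at least 1 alternative setting.

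**Figure D2:**
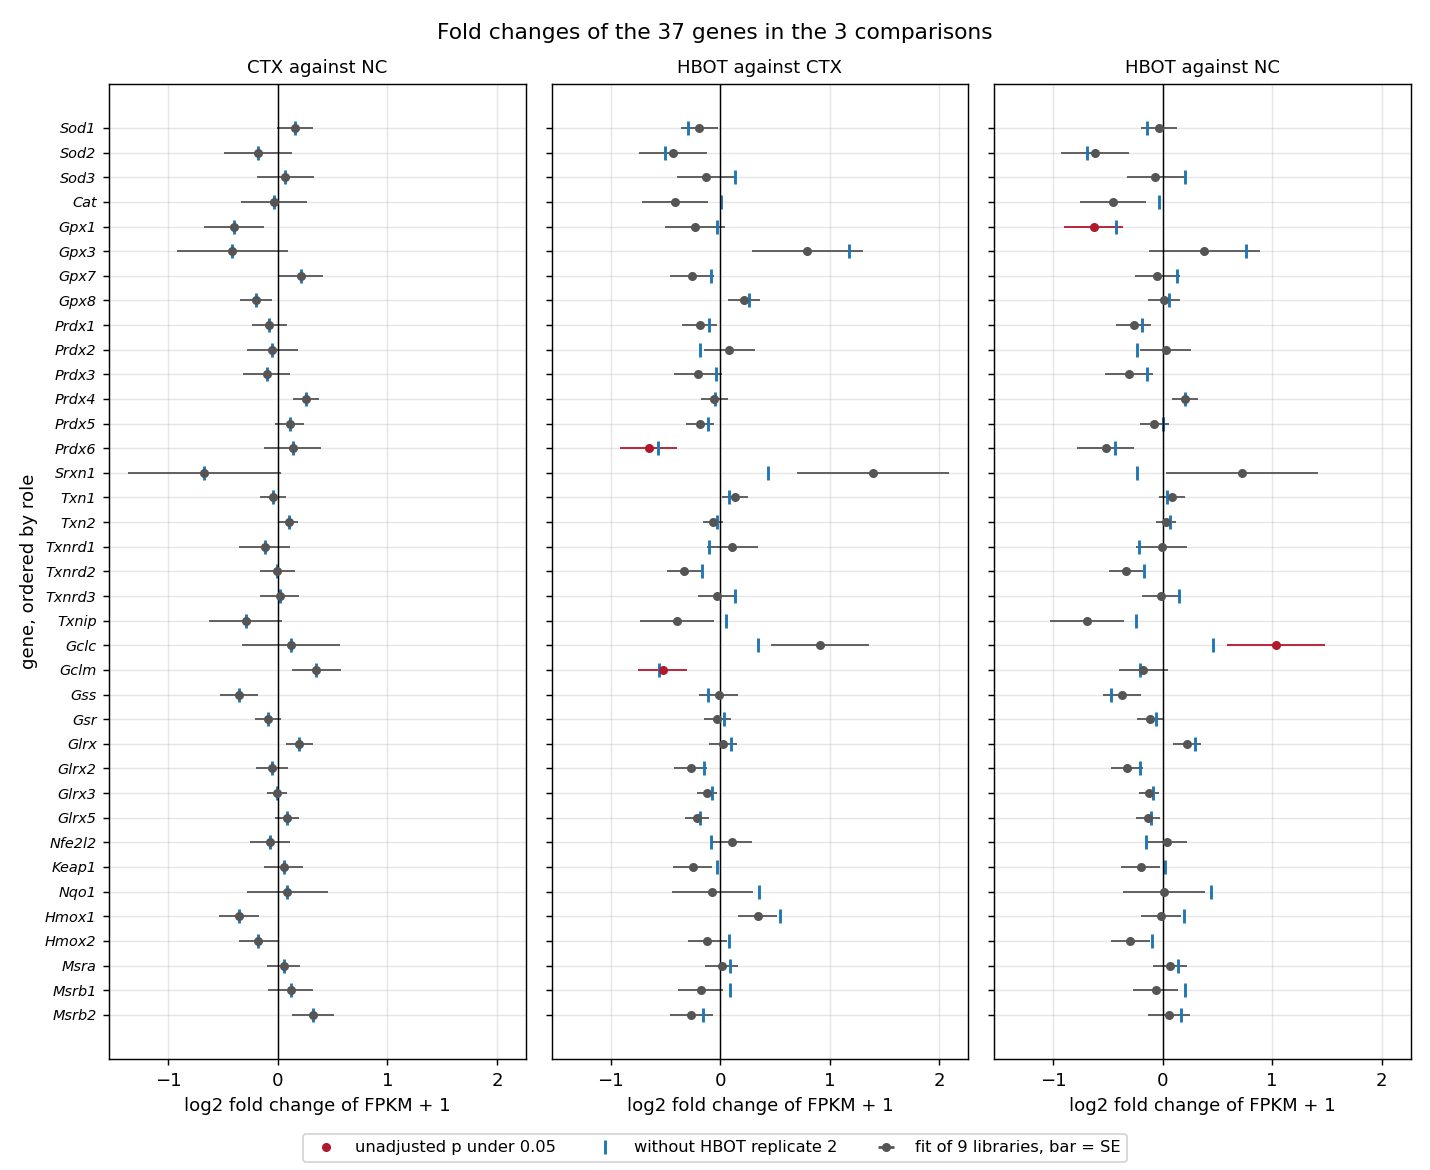
Log2 fold change of FPKM + 1 for each of the 37 genes in the 3 comparisons, with bars of 1 SE from the fit of all 9 libraries, red where the unadjusted p was under 0.05, and a blue tick for the fit without HBOT replicate 2. Most genes lie within 0.5 of 0, and the blue ticks move Srxn1, Gclc, Cat and Txnip toward 0 in HBOT against CTX.

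HBOT was set against CTX for the effect of hyperbaric oxygen on top of the drug. None of the 37 genes passed an adjusted p of 0.05 by limma, where 0% of all tested genes did, and the smallest adjusted p of a member was 0.710. Unadjusted p-values under 0.05 were found for 2 members, Prdx6 and Gclm, both lower in HBOT, a share of 5.41%, against 6.09% of all tested genes (2.41% higher and 3.67% lower). Leaving HBOT replicate 2 out gave 1 member, Hmox1, higher in HBOT (2.7%, against 5.22% of all tested genes). Of the 37, 26 were lower in HBOT (70.3%, against 61.6% of all genes) with a median of -0.12 (-0.07 over all genes). Without HBOT replicate 2, 21 were lower (56.8%, against 50.8%) and the median was -0.03. The groups did not overlap for 2 members, 5.41% against 10.2% of all tested genes, with Gpx8 higher (3.76% of all genes) and Prdx6 lower (6.44%).

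Prdx6 stood at 70.3, 104 and 119.7 FPKM in CTX and 63.9, 53.2 and 64.6 in HBOT. All HBOT libraries were below all CTX libraries, with CTX replicate 1 nearest (log2 fold change -0.66, SE 0.26, adjusted p = 0.71 by limma; -0.57, SE 0.29 without HBOT replicate 2). In NC the gene was at 105, 106 and 58.9 FPKM, so that NC replicate 3 lay among the HBOT libraries. Summed theca and interstitial markers, 7 of 7 detected, were 4519 to 9281 FPKM in CTX and 5268 to 6341 in HBOT, and 2 of 7 were higher in HBOT on average, and their part in the Prdx6 values was not tested.

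Gclm, the modifier subunit of the glutathione ligase, stood at 27.7, 15.0 and 20.5 FPKM in CTX and 11.9, 14.6 and 15.4 in HBOT (log2 fold change -0.53, SE 0.22, adjusted p = 0.71 by limma), and the groups overlapped. Its partner Gclc had the opposite sign, with 40.4, 20.4 and 31.1 FPKM in CTX and 34.8, 126 and 40.7 in HBOT (0.91, SE 0.45). Without HBOT replicate 2 the Gclc difference was 0.34 (SE 0.26) and that of Gclm -0.56 (SE 0.25). Gpx8, an endoplasmic reticulum peroxidase, was the other member without overlap, at 44.9, 43.1 and 40.8 FPKM in CTX and 50.5, 46.9 and 52.6 in HBOT.

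Hmox1 was higher in HBOT replicates 1 and 3, at 40.8 and 42.5 FPKM, than in the CTX libraries, while HBOT replicate 2 lay among them at 27.0. With all libraries the log2 fold change was 0.34 (SE 0.18, adjusted p = 0.71 by limma), and without HBOT replicate 2 it was 0.54 (SE 0.13, unadjusted p = 0.00264, adjusted p = 0.552). HBOT replicates 1 and 3 lay just above the NC range of 34.2 to 40.2 FPKM. Macrophage markers summed to 131 to 176 FPKM in CTX and 130.5 to 194 in HBOT, with 7 of 12 higher in HBOT on average, and erythroid markers to 387 to 817 and 317 to 735, with 0 of 7 higher, and their part in the Hmox1 values was not tested.

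**Figure D3:**
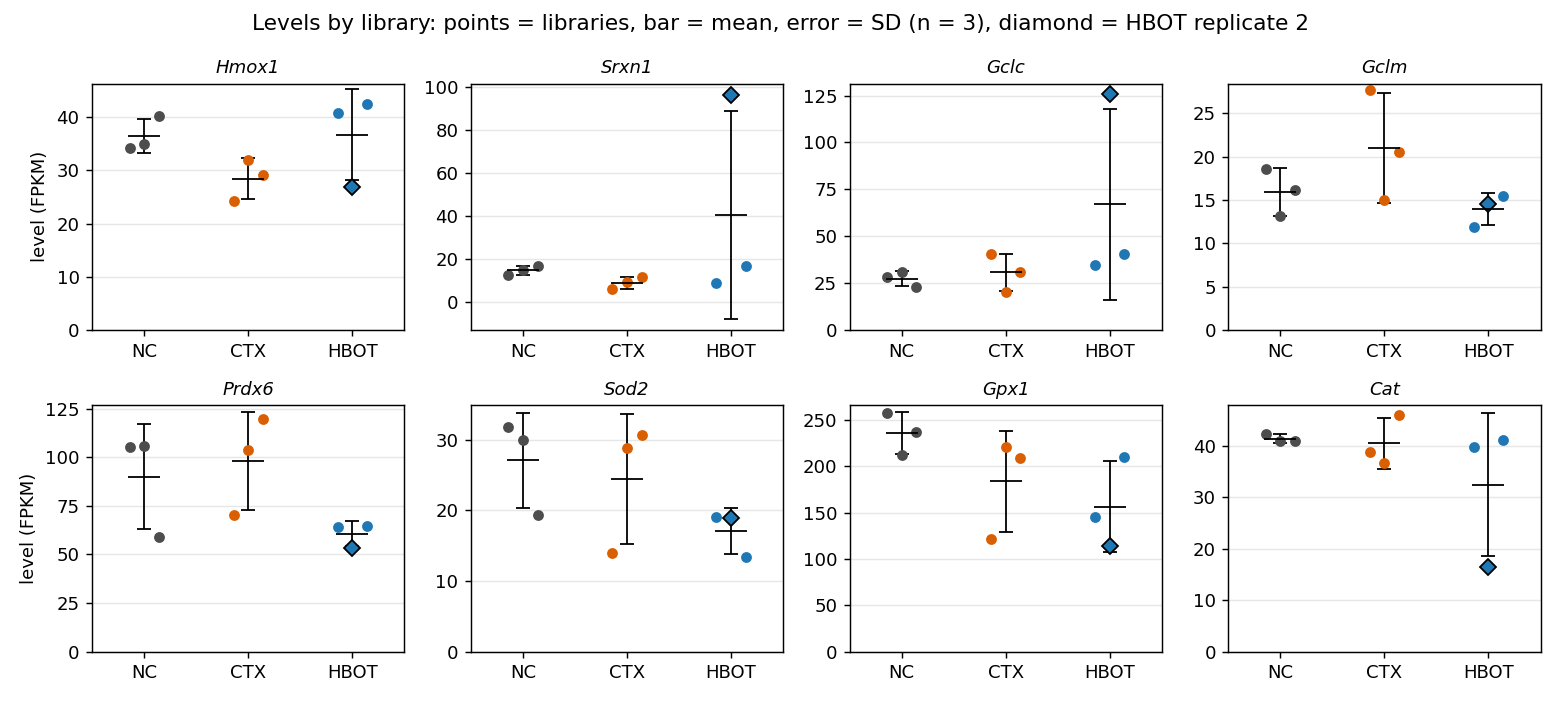
FPKM of 8 genes in each library (points), with the group mean (bar) and SD (error bar, n = 3) and HBOT replicate 2 as a diamond. Hmox1 is lower in CTX than in NC without overlap. Prdx6 and Sod2 are low in all HBOT libraries but also in NC replicate 3. In CTX replicate 1 Sod2 is low too (13.9 FPKM), and Prdx6 (70.3 FPKM) is nearest to the HBOT libraries among CTX. HBOT replicate 2 alone sets the HBOT mean of Srxn1, Gclc and Cat.

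For several of the other core genes HBOT replicate 2 set the size or the sign of the difference between HBOT and CTX. Srxn1 was at 9.08, 96.3 and 16.6 FPKM in HBOT against 6.15 to 11.6 in CTX, a log2 fold change of 1.40 (SE 0.70) with that library and 0.44 (SE 0.29) without it. Cat differed by -0.41 (SE 0.30) with it and 0.01 without it, Nqo1 by -0.07 (SE 0.37) and 0.35, Keap1 by -0.25 (SE 0.18) and -0.03, Nfe2l2 by 0.11 (SE 0.18) and -0.08, and Txnrd1 by 0.11 (SE 0.23) and -0.10. The dismutases were at -0.19 (SE 0.16) for Sod1, -0.43 (SE 0.31) for Sod2 and -0.13 (SE 0.26) for Sod3 with it and at -0.30, -0.51 and 0.13 without it, so Sod1 and Sod2 kept their direction. The smallest adjusted p of these 9 genes was 0.71 by limma. Gpx3, at 149, 167 and 410.2 FPKM in CTX, overlapped the HBOT libraries at 356, 221 and 682.5.

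The comparison of HBOT with NC shares the HBOT libraries with the one before and the NC libraries with the first. Again 0 of 37 members passed an adjusted p of 0.05 by limma, where 0% of all tested genes did, with a smallest adjusted p of 0.414. Unadjusted p-values under 0.05 were found for Gpx1, lower, and Gclc, higher, 5.41% of the members against 11.9% of all tested genes (6.22% higher and 5.65% lower). With that library left out they were found for Gss, lower, and Glrx, higher (5.41%, against 13.2%). The groups did not overlap for 5 members, 13.5% against 20.5% of all tested genes: Sod2, Gpx1, Txnrd2 and Glrx2 were lower in HBOT (9.6% of all tested genes) and Gclc was higher (10.9%). Of the 37, 24 were lower in HBOT (64.9%, against 52.4% of all genes), and 20 without HBOT replicate 2 (54.1%, against 41.8%).

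Gpx1, the main cytosolic and mitochondrial glutathione peroxidase, stood at 257, 212 and 237 FPKM in NC and 145, 114 and 210 in HBOT, with HBOT replicate 3 just under the lowest NC library (log2 fold change -0.63, SE 0.27, adjusted p = 0.414 by limma; -0.43, SE 0.27 without HBOT replicate 2). In CTX it was at 121, 221 and 209 FPKM, so CTX replicate 1 lay with the low HBOT libraries. Sod2 differed by -0.62 on the log2 scale (SE 0.31, adjusted p = 0.462 by limma) and by -0.69 (SE 0.35) without HBOT replicate 2, with the library values given above. Txnrd2 stood at 10.2, 10.8 and 11.4 FPKM in NC and 10.1, 6.41 and 8.98 in HBOT, and Glrx2 at 12.7, 11.8 and 10.4 against 10.02, 7.50 and 9.88. For both, the highest HBOT value nearly touched the lowest NC value. The log2 difference of Txnrd2 was -0.34 with HBOT replicate 2 and -0.17 without it, and that of Glrx2 -0.33 and -0.21. Theca and interstitial markers summed to 6290 to 9116 FPKM in NC and 5268 to 6341 in HBOT, with 4 of 7 higher in HBOT on average, and corpus luteum markers, 8 of 8 detected, to 3261 to 4216 and 1052 to 4100, with 1 of 8 higher, and their part in the Gpx1 and Sod2 values was not tested.

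Gclc was at 28.0, 30.8 and 22.9 FPKM in NC and 34.8, 126 and 40.7 in HBOT, all of the latter higher (log2 fold change 1.03, SE 0.45, adjusted p = 0.417 by limma). Without HBOT replicate 2 the difference was 0.46 (SE 0.26, adjusted p = 0.463). Apart from Sod2, given above, the other core genes differed by less than their error between HBOT and NC except Cat at -0.45 (SE 0.30), Keap1 at -0.20 (SE 0.18) and Srxn1 at 0.72 (SE 0.70). Without HBOT replicate 2 these were at -0.03, 0.02 and -0.23. Nfe2l2 was at 0.04 (SE 0.18), Nqo1 at 0.01 (SE 0.37), Hmox1 at -0.01 (SE 0.18), Gclm at -0.18 (SE 0.22), Txnrd1 at -0.01 (SE 0.23), Sod1 at -0.04 (SE 0.16) and Sod3 at -0.07 (SE 0.26). The smallest adjusted p of these 10 genes was 0.548 by limma. Hmox1, Nqo1 and Txnrd1 lay so near 0 that a change of scaling turned their sign.

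Within the list, HBOT replicate 2 held the most extremes. It had the lowest value for 19 of the 37 members (51.4%, against 44.1% of all tested genes) and the highest for 6 (16.2%, against 19.5%). The 6 highest were Srxn1, Gclc, Prdx2, Txnrd1, Nfe2l2 and Txn1. Srxn1, at 96.3 FPKM, was 5.79 times the highest of the other 8 libraries, and Gclc 3.09 times. Prdx2, a peroxiredoxin abundant in red cells, was at 385 FPKM, 1.34 times the next highest library. Erythroid markers summed to 735 FPKM in HBOT replicate 2 and to 62.9 to 817 elsewhere, and their part in the Prdx2 values was not tested. Txnrd1 was 1.07 times, Nfe2l2 1.17 times and Txn1 1.01 times the next highest, so these 3 were barely outside the range of the others. On the low side Txnip was at 0.457, Cat at 0.448, Nqo1 at 0.609, Keap1 at 0.650 and Msrb1 at 0.669 of the lowest of the other 8 libraries. On the log2(FPKM + 1) scale, 4 of the 37 members were more than 1 unit away from the average of the remaining libraries, Srxn1 and Gclc above and Cat and Txnip below. That share was slightly under the 12.3% of all tested genes. The NRF2 target genes thus stood on both sides in this library: Srxn1 and Gclc high, Nqo1 low, Hmox1 (27.0 FPKM) and Gclm (14.6 FPKM) inside the range of the others.

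The sequence before the start of Srxn1 is shown because this gene had the widest range of the 37, 15.7 times from the lowest to the highest library. The letters TGANTCA, the core bound by AP-1 factors, were searched on both strands in the RefSeq promoter windows (250 bases before to 50 after a start, build GRCm38.p6, which is not the build of the expression table). They occur at -102 and -45 from the start of Srxn1 and are in capitals in the 250 bases before the start, at chr2:152105274-152105523 on the plus strand.
Srxn1: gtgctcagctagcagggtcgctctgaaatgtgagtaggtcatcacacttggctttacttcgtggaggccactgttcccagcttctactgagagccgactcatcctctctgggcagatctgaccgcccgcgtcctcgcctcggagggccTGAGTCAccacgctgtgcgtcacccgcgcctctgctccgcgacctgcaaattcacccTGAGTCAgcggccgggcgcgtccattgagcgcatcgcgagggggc

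The match at -45 is followed by GC. That longer string, TGANTCAGC, combines the AP-1 letters with the end of an antioxidant response element. It was searched after the Srxn1 sequence had been seen, so Srxn1 was bound to match. It is in the windows of 2 of 31 matched members (Srxn1 and Prdx1) and in 1.37% of all genes with a window. TGANTCA alone, also not a planned search, is in the windows of 3 of 31 members (Srxn1, Prdx1 and Glrx, 9.68%) and of 8.97% of all genes.

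The core of the antioxidant response element, TGACNNNGC on either strand, is in the windows of 7 of 31 members (22.6%) and of 14% of all genes with a window. The 7 were Nfe2l2, Gclm, Prdx1, Txnrd1, Sod1, Srxn1 and Msrb2, and the match in Srxn1 and Msrb2 lies after the start. Sod3, Prdx6, Gclc, Gsr, Hmox1 and Msra had no entry. The 5 matches before the start are shown side by side, in the direction of the gene, with up to 20 bases on each side and the core in capitals. The core reads forward in Nfe2l2 (-240; chr2:75704875-75704913, minus strand). It reads backward in Gclm (-134; chr3:122245403-122245451), Prdx1 (-133; chr4:116685446-116685494), Txnrd1 (-92; chr10:82859094-82859142) and Sod1 (-56; chr16:90220686-90220734), all on the plus strand. In Prdx1 it overlaps the AP-1 letters. Such a match is a description of letters, not a site.
Nfe2l2: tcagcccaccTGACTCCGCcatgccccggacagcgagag
Gclm: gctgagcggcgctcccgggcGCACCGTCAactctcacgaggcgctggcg
Prdx1: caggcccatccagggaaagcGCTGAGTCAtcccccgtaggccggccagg
Txnrd1: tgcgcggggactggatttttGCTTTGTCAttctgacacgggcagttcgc
Sod1: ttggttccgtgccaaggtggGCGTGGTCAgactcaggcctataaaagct

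The 5 genes with these letters before the start differed in behaviour in HBOT replicate 2. Nfe2l2 and Txnrd1 were at their highest there, and Prdx1 at its lowest (188 FPKM, against 196 to 290.3 elsewhere). Gclm and Sod1 lay within the range of the other libraries. Among those with the match after the start, Srxn1 was at its highest there (96.3 FPKM) and Msrb2 (9.77 FPKM) lay within the range of the others.

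Other genes of the same pathways were read from 5 lists. None of their genes passed an adjusted p of 0.05 by limma in any of the 3 comparisons. Of 13 regulators of NRF2, such as the small MAF partners and the repressor BACH1, 12 were tested. In the 3 comparisons, taken in the order above, 0, 0 and 1 (8.33%) had an unadjusted p under 0.05 by limma. The shares of all tested genes were 7.98%, 6.09% and 11.9%. The 1 regulator was the repressor gene Bach2, at 0.888, 1.14 and 1.31 FPKM in NC and 2.24, 2.62 and 2.18 in HBOT. Without HBOT replicate 2 the counts of regulators with an unadjusted p under 0.05 were 2 (16.7%), 0 and 1 (8.33%). All tested genes had 15.8%, 5.22% and 13.2% in that fit. Of 30 further NRF2 targets 25 were tested, with 1 (4%), 4 (16%) and 7 (28%) at that level, against 7.98%, 6.09% and 11.9% of all tested genes. The counts were 2 (8%), 2 (8%) and 6 (24%) without HBOT replicate 2, against 15.8%, 5.22% and 13.2% of all tested genes in that fit. The median log2 fold changes of the 25 were 0.09, 0.02 and 0.05, against 0.05, -0.07 and -0.02 over all genes.

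In CTX against NC the target named by its p was Fth1, the ferritin heavy chain that stores iron, at 705, 687 and 715 FPKM in NC and 917, 822 and 847 in CTX (0.30 on the log2 scale, SE 0.13, adjusted p = 0.612 by limma). In HBOT against CTX they were Gsta4, a transferase that conjugates lipid peroxidation products (116, 51.7 and 108 against 146, 167 and 136 FPKM), the carbonyl reductase Cbr3 (6.17, 7.01 and 5.63 against 7.37, 17.0 and 8.76) and Osgin1 (12.0, 11.6 and 11.8 against 8.60, 5.53 and 9.21). The groups did not overlap for these 3, and the first 2 were higher and Osgin1 lower. When HBOT replicate 2 was left out, the log2 fold change of Cbr3 was 0.32 instead of 0.65, that of Gsta4 0.70 instead of 0.78 and that of Osgin1 -0.37 instead of -0.57. In HBOT against NC, Me1, the malic enzyme that makes NADPH, had the smallest p of the targets. It stood at 530, 547 and 484 FPKM in NC and 177, 197 and 277 in HBOT (-1.28, SE 0.33, adjusted p = 0.279 by limma; -1.22 without HBOT replicate 2, and -1.34 with an adjusted p of 0.0467 with a weight per library). CTX lay between and spread widely, at 186, 408 and 489 FPKM. As with Gpx1 and Sod2, CTX replicate 1 was the low CTX library. The fit with a weight per library, which gave Me1 the adjusted p of 0.0467, called many more genes than the 3-group fit. Its counts are given at the end. Gsta4 (68.2, 66.3 and 105 FPKM in NC) and Cbr3 (6.09, 4.90 and 6.48) were higher in HBOT than in NC without overlap. Their log2 differences from NC were 0.93 and 0.74 with HBOT replicate 2 and 0.85 and 0.41 without it.

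Of 18 other selenoprotein genes 15 were tested, and 0, 1 (6.67%) and 1 (6.67%) had an unadjusted p under 0.05, against 7.98%, 6.09% and 11.9% of all tested genes. Gpx4, which reduces lipid peroxides in membranes, was at 169, 235 and 285 FPKM in CTX and 167, 175 and 169 in HBOT, and overlapped narrowly. Selenot was at 52.8, 57.8 and 50.2 FPKM in NC and 44.3, 44.3 and 47.5 in HBOT.

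Of 16 genes of enzymes that produce oxidants, 9 were tested. In CTX against NC 3 (33.3%) had an unadjusted p under 0.05 by limma, and again 3 in HBOT against NC, all higher than in NC. In HBOT against CTX there were 0. Of all tested genes, 5.24% and 6.22% were higher at that level in CTX against NC and in HBOT against NC. Among the 3 in both was Rac2, a small GTPase of blood cells. Rac2 stood at 2.37, 2.62 and 2.58 FPKM in NC, 3.61, 6.14 and 5.50 in CTX and 4.46, 3.29 and 5.45 in HBOT (0.77, SE 0.21, adjusted p = 0.371 for CTX against NC by limma, and 0.60, SE 0.21, adjusted p = 0.354 for HBOT against NC). With a weight per library the adjusted p of Rac2 was 0.036 and 0.0493, in a fit that called many more genes than the 3-group fit in both comparisons. Rac2 is expressed in leukocytes, and the summed 8 neutrophil markers were 0.792 to 2.02 FPKM in NC, 7.92 to 41.5 in CTX and 13.4 to 40.1 in HBOT, with 8 of 8 higher in CTX and in HBOT than in NC on average and 6 of 8 at 0 in at least 1 library. The 12 macrophage markers, given above for NC, CTX and HBOT, had 10 of 12 higher in HBOT than in NC, and the 8 measured T and NK cell markers summed to 2.83 to 3.88, 6.21 to 15.4 and 4.65 to 11.6 FPKM in the 3 groups. The part of these cells in the Rac2 values was not tested. The non-phagocytic oxidase Nox4 reached at most 0.984 FPKM and was not tested.

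Of 20 other glutathione and thioredoxin genes 16 were tested, with 2 (12.5%), 0 and 3 (18.8%) at an unadjusted p under 0.05 by limma. The shares of all tested genes were 7.98%, 6.09% and 11.9%. Those named by the rule follow. Glo1, the glyoxalase that removes methylglyoxal with glutathione, was at 30.2, 48.3 and 27.4 FPKM in NC and 78.2, 85.5 and 71.8 in CTX (1.17, SE 0.40, adjusted p = 0.492 by limma), and at 74.7, 22.2 and 55.4 in HBOT. The drug-exposed libraries other than HBOT replicate 2 were all above NC. Tmx1, a thioredoxin-related protein of the endoplasmic reticulum, was at 33.4, 39.5 and 34.8 FPKM in NC, 22.3, 29.3 and 28.4 in CTX and 28.5, 25.8 and 29.1 in HBOT. Ggct, which breaks down gamma-glutamyl dipeptides, was at 8.93, 9.07 and 7.26 FPKM in NC and 13.1, 41.7 and 17.4 in HBOT, and Sesn2, a sestrin induced by stress, at 5.94, 6.11 and 5.08 against 8.73, 6.33 and 8.77. The log2 fold change of Ggct was 1.25 with HBOT replicate 2 and 0.78 without it.

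**Figure D4:**
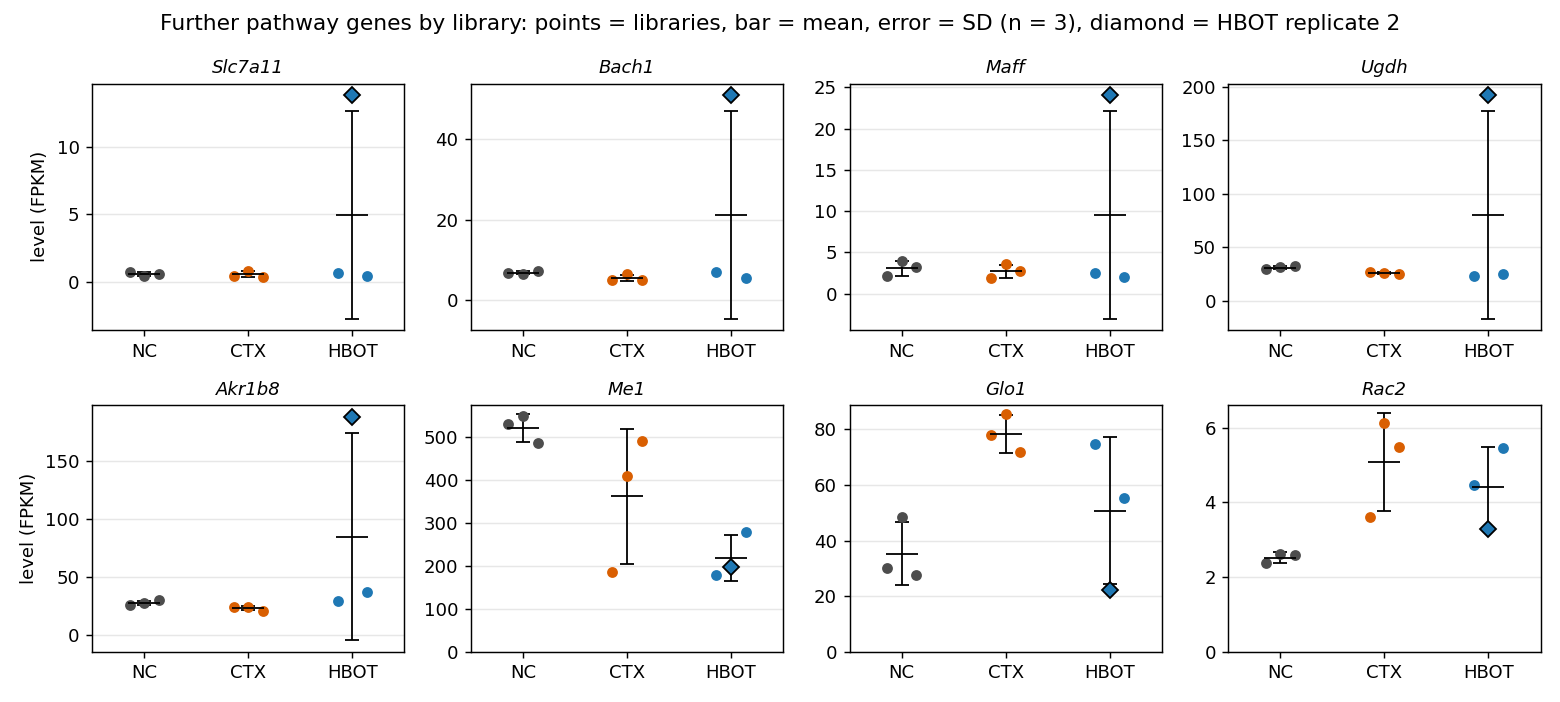
FPKM of 8 further pathway genes in each library (points), with the group mean (bar) and SD (error bar, n = 3) and HBOT replicate 2 as a diamond. The first 5 panels show genes that are high in HBOT replicate 2 alone, such as Ugdh at 192 FPKM, and the last 3 show Me1 low in HBOT and CTX replicate 1, Glo1 high in CTX, and Rac2 above NC in all other libraries.

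HBOT replicate 2 left the range of the other libraries in both directions among these pathway genes. Of the 77 that passed the filter, 7 (9.09%) were above 2 times the highest other library and 5 (6.49%) under 0.5 of the lowest, against 2.41% and 5.95% of all tested genes, a rule set after the values were seen. Slc7a11, the cystine importer that feeds glutathione synthesis, was at 13.8 FPKM there against 0.384 to 0.819 elsewhere, so it reached 1 FPKM only there and did not pass the filter. Ugdh, which makes the sugar for glucuronides and hyaluronan, was at 192 against 23.5 to 32.1 FPKM, Akr1b8, an aldose reductase, at 188 against 20.6 to 36.7, and the repressor Bach1 at 51.1 against at most 7.33. The small MAF gene Maff was at 24.1 against 1.91 to 3.90, and the deiodinase gene Dio2 at 10.9 against 0.951 to 1.98. Ggct and Nxn (38.6 against 12.9 to 17.0 FPKM) complete the high genes that passed. Low in that library were the aldehyde oxidase gene Aox1, at 1.496 against 7.97 to 11.96 FPKM, Ggt5, at 2.48 against 7.18 to 10.5, Chac2, at 1.63 against 3.59 to 5.82, and the sestrin genes Sesn1, at 5.95 against 15.7 to 21.3, and Sesn3, at 5.16 against 12.9 to 24.3. The ovulatory genes were high in the same library, with 10 of 10 higher in HBOT than in CTX on average, and their part in these values was not tested.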

How the data were processed

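The authors deposited FPKM per library for 22544 entries (21797 with Ensembl identifiers, 747 MSTRG loci). Per the submitters' processing notes, fastp 0.23.4 and GRCm39 (mm39) were used. No source used here names an aligner, a counter or an annotation. Columns were matched to samples by the names in their descriptions, and 0 stayed unmatched.

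Read counts cannot be taken from these FPKM, so depth is unknown. Values were used as log2(FPKM + 1), which understates fold changes of low genes. Entries with at least 1 FPKM in at least 3 libraries were tested (13338). All 9 libraries entered one 3-group model in limma 3.58.1 under R 4.3.3 (eBayes with trend, 6 residual degrees of freedom), with Benjamini-Hochberg adjustment over all tested genes of a comparison. The procedure was tested on simulated data. Members, lists and rules were chosen with earlier results of these data known. Fold changes are given for members with an unadjusted p under 0.05 and for 12 core genes (Nfe2l2, Keap1, Nqo1, Hmox1, Gclc, Gclm, Srxn1, Txnrd1, Sod1, Sod2, Sod3 and Cat), and up to 3 genes of each other pathway list with the smallest p under 0.05 are named. A result that this rule would name is not reported here. Alternatives changed pseudocount, filter, scaling, libraries and variance model. Promoters came from RefSeq on GRCm38.p6. Figures were drawn with matplotlib 3.10.9.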

Additional observations from a re-analysis of the deposited data

How the results depend on the processing

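Depth is unknown and 3 libraries per group limit the precision: the median SE of a member's log2 fold change was 0.18, so small changes were not detectable. No member was called in any of 21 alternatives. For the other pathway genes these alternatives were added after seeing the data. Leaving out both libraries, the members with an unadjusted p under 0.05 numbered 1, 7 and 7 in the 3 comparisons (CTX to NC, HBOT to CTX, HBOT to NC), or 2.7%, 18.9% and 18.9%, against 12.4%, 11.7% and 17.4% of all tested genes in that fit. Median-of-ratios scaling put 22, 21 and 22 members lower, where the deposited scale put 20, 26 and 24. Of 59 log2 fold changes, 38 kept their direction in all alternatives. Over all genes, the number called in CTX against NC was 0 in the 3-group fit, 31 with the 2 groups only, 123 with library weights and 16 without both libraries (0 to 9 leaving out 1 library, with 8 without HBOT replicate 2 and 9 without HBOT replicate 3). In HBOT against CTX it was 0, and 1 with no filter, 5 with weights and 2 without both (0 to 1). In HBOT against NC it was 0, and 1 with no filter and 181 with weights (0 to 3, with 3 without HBOT replicate 3). The cause was not tested. The replicate block called 0 members and 0 genes. The labels do not say that the numbers pair the libraries. The correlation of same-numbered libraries was -0.287 to 0.156 over 9 pairs, with 2 of them above 0.1. Of the 9 libraries, 4 correlated best with their own number. With 3 libraries per group these values cannot decide whether the libraries were paired.

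Signs turned mostly for values near 0, the largest of them in the 3-group fit being Srxn1 in HBOT against NC at 0.72. With pseudocount 0.1, signs turned for Nqo1 -0.023 in HBOT against NC. With TPM scaling, signs turned for Nqo1 -0.034 in HBOT against NC. With median-of-ratios scaling, signs turned for Keap1 -0.001 in CTX against NC, and Hmox1 0.001, Txnrd1 0.005 in HBOT against NC. With quantile scaling, signs turned for Nqo1 0.015 in HBOT against CTX, and Hmox1 0.003 in HBOT against NC. With library weights, signs turned for Gclc -0.075 in CTX against NC, and Nfe2l2 -0.121, Nqo1 0.293, Txnrd1 -0.115, Sod3 0.151 in HBOT against CTX, and Nfe2l2 -0.229, Hmox1 0.199, Srxn1 -0.208, Sod3 0.2 in HBOT against NC. Without HBOT replicate 2 and CTX replicate 1, signs turned for Nqo1 -0.081, Gclc -0.096, Sod2 0.161, Sod3 -0.002 in CTX against NC, and Nfe2l2 -0.102, Nqo1 0.519, Txnrd1 -0.213, Sod3 0.205 in HBOT against CTX, and Nfe2l2 -0.152, Keap1 0.022, Hmox1 0.191, Srxn1 -0.233, Sod3 0.203 in HBOT against NC. Leaving out 1 library, the ranges that crossed 0 in CTX against NC were Nfe2l2 -0.195 to 0.026, Sod3 -0.048 to 0.257, Nqo1 -0.084 to 0.209, Txnrd1 -0.322 to 0.039, Gclc -0.096 to 0.378, Sod2 -0.403 to 0.161, Cat -0.131 to 0.029. Leaving out 1 library, the ranges that crossed 0 in HBOT against CTX were Nqo1 -0.445 to 0.354, Txnrd1 -0.1 to 0.258, Nfe2l2 -0.081 to 0.256, Sod3 -0.35 to 0.134, Cat -0.632 to 0.005. Leaving out 1 library, the ranges that crossed 0 in HBOT against NC were Txnrd1 -0.219 to 0.149, Sod1 -0.144 to 0.093, Nqo1 -0.361 to 0.438, Nfe2l2 -0.152 to 0.185, Hmox1 -0.128 to 0.191, Sod3 -0.281 to 0.203, Keap1 -0.317 to 0.022, Srxn1 -0.233 to 1.403.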
